A study of Mus musculus with 6 samples.

Results

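Thrombospondins, periostin and SPARC proteins are described here through 6 genes, Postn, Thbs1, Thbs2, Thbs3, Sparc and Sparcl1, out of 9490 genes with values. They were taken by symbol, and each had exactly 1 array row with a single gene symbol. Those rows were 10492021 for Postn, 10474700 for Thbs1, 10447951 for Thbs2, 10493449 for Thbs3, 10386058 for Sparc and 10531931 for Sparcl1. RNA came from cultured cancer stem-like cells of TRAMP mice, a strain in which the probasin promoter drives a viral oncogene in prostate epithelium. The 3 TPIN samples were cells from prostates at 10 to 11 weeks of age with intraepithelial neoplasia, and the 3 TNE samples were cells from mice with neuroendocrine tumours, whose age the labels do not give. All 6 cultures had EGF and FGF2 in medium without serum, and their free-text description names intraepithelial neoplasia even for TNE, so the groups rest on titles and cell type labels. Replicate numbers only name the samples. The labels do not tell whether the 3 cultures of a kind derive from different animals, so p-values cover only the spread seen among these cultures, part of which may be technical.

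Matricellular proteins are secreted into the matrix, where they tune how cells attach, move and receive growth factors rather than bearing load. Thrombospondins bind calcium, other matrix proteins and cell surface receptors. Thbs1 and Thbs2 form trimers with type 1 repeats that restrain vessel growth, whereas Thbs3 and Thbs4 form pentamers that lack these repeats. Periostin is a fasciclin-domain protein that links collagen, fibronectin and tenascin-C and binds integrins. SPARC binds collagen and calcium, and SPARC-like 1, also called hevin, is its closest relative. In solid tumours several of these genes, such as Postn and Sparc, are best known as products of activated fibroblasts and of cells in a mesenchymal state.

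Periostin, thrombospondin-1 and SPARC transcripts were lower in TNE cells than in TPIN cells by 66.9-fold, 14.1-fold and 5.63-fold, and thrombospondin-3 was 3.00-fold lower. Of the 6 genes 4 fell, none rose and 2, Thbs2 and Sparcl1, did not pass the test. Here and below, passing means a Benjamini-Hochberg adjusted p under 0.05 over all 9490 genes in limma, and "fell" and "rose" mean lower and higher in TNE. As background, 20.5% of all genes passed, 10.2% lower and 10.3% higher in TNE. In 4 of the 6 genes every TNE array lay below every TPIN array, which held for 20.5% of all genes, while the reverse held for 23.3% and either for 43.8%. A negative difference, whatever its p, was seen in 5 of the 6 and in 50.8% of all genes. The median log2 difference was -2.58 over the 6 genes and -0.02 over all genes. Arrays of a group had correlations of 0.825 to 0.917 over all rows, and arrays of different groups 0.549 to 0.733. With all arrays 1941 genes passed, a number that dropped to 936, 1115 and 832 when TPIN replicate 1, TPIN replicate 2 and TNE replicate 2, respectively, were left out.

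To show the regulatory sequence of genes that fell together, the 250 bases before the start of transcription are printed for 4 of the 6 genes, from RefSeq (GRCm38.p6), 5′ to 3′ on the gene's strand. Thbs1, which fell, and Sparcl1 had no promoter entry to print. Thbs2, which did not pass, is included for comparison. Capitals mark matches, on either strand, to a TATA box (TATAAA), a GC box bound by Sp1 (GGGCGG) or a SMAD-type element (CAGACA). An AP-1 site (TGANTCA), a cyclic AMP response element (TGACGTCA), a TEAD-type element (GGAATG) and the CArG box of serum response factor were also searched on both strands and not found in the 4 windows.
Postn, chr3:54360857-54361106, plus strand: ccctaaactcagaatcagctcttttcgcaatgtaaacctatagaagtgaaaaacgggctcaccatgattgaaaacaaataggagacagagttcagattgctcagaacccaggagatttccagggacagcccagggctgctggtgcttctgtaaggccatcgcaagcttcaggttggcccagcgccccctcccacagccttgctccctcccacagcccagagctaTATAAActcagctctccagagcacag
Sparc, chr11:55420081-55420330, minus strand: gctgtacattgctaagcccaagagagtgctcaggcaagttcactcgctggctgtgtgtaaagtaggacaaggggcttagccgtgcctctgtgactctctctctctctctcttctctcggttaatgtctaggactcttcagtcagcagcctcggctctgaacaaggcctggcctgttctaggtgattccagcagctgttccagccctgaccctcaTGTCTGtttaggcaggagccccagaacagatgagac
Thbs3, chr3:89214930-89215179, plus strand: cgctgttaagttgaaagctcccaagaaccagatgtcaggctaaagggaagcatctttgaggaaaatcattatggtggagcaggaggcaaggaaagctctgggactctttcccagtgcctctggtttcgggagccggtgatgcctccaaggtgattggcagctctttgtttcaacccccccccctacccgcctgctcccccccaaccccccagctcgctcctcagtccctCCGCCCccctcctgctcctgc
Thbs2, chr17:14694263-14694512, minus strand: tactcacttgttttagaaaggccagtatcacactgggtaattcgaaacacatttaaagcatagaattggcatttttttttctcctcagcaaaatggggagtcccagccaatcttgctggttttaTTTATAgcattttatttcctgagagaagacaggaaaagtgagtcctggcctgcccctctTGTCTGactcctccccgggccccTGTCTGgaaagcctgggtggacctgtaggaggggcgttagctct

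The sequences differ in their makeup. The Postn window holds a TATA box at bases -26 to -21 from the start. A second Postn start in the table, at chr3:54359017-54359266, held none of the motifs searched. Thbs3 has a GC box, on the opposite strand, at bases -21 to -16, and its window has the highest GC content of those printed (58.8%, against a median of 52.4% over all promoters). Sparc has 1 SMAD-type element on the opposite strand and Thbs2 has 2, beside a TATA match on the opposite strand at bases -126 to -121. Over 32851 promoter windows of the same length, 12.4% hold the TATA box, 32.7% the GC box, 17.1% the SMAD-type element, 6.75% the AP-1 site, 1.55% the cyclic AMP element, 12.6% the TEAD-type element and 1.47% the CArG box. Postn, Sparc and Thbs3, the printed genes that fell, share no match among these motifs in these windows. Thbs1, which also fell, could not be searched.

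Postn had the largest difference of the 6. In log2 units of the robust multi-array average (RMA), TPIN cells had 11.90, 13.83 and 13.43 and TNE cells 6.60, 6.38 and 7.98. The groups did not overlap and stood 3.91 apart at their nearest, with TPIN replicate 1 the lowest TPIN array and TNE replicate 3 the highest TNE array. The means were 13.05 ± 1.02 and 6.99 ± 0.87 (SD, n = 3 each), a log2 difference of -6.06 (95% interval -7.46 to -4.67, limma adjusted p = 0.00124). This is 66.9-fold lower on the RMA scale and the 5th lowest difference among all genes. The fold carries no detection call, since the table gives none. When single arrays were dropped the difference stayed within -6.64 to -5.68.

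Thbs1 encodes thrombospondin-1, which binds CD36 and CD47 and can release TGF-beta from its latent form. TPIN cells had 13.64, 14.11 and 13.46, and TNE cells 9.66, 10.49 and 9.59. All TNE values lay at least 2.97 below all TPIN values, and both groups were tight. The log2 difference was -3.82 (95% interval -4.62 to -3.02, 14.1-fold, limma adjusted p = 0.00112). It ranged from -4.11 to -3.63 when single arrays were left out.

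Thbs2 encodes the other trimeric thrombospondin, which restrains vessel growth but does not activate TGF-beta. TPIN cells had 13.77, 13.74 and 12.37, and TNE cells 11.37, 12.93 and 7.58. TNE replicate 2 lay within the TPIN range and TNE replicate 3 far below every other array, so the TNE arrays spanned 5.35 log2 units. The log2 difference of -2.67 had a 95% interval of -5.46 to 0.13 and did not pass (limma adjusted p = 0.143). Without TNE replicate 3 it was -1.15 (limma adjusted p = 0.222), and without TNE replicate 2 it was -3.82 (limma adjusted p = 0.0682). A fall of several fold and no difference both lie within this interval.

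Thbs3 encodes a pentameric thrombospondin known from cartilage and bone. Levels were 9.77, 9.42 and 9.09 in TPIN cells against 8.80, 7.16 and 7.56 in TNE cells. TNE replicate 1 came within 0.29 of the lowest TPIN array, without overlap. The log2 difference was -1.58 (95% interval -2.63 to -0.54, 3.00-fold, limma adjusted p = 0.0440). Dropping TPIN replicate 1, 2 or 3 ended the call (-1.41, -1.59 and -1.75, limma adjusted p = 0.138, 0.110 and 0.0534). So did dropping TNE replicate 2 or 3 (-1.24 and -1.44, limma adjusted p = 0.144 and 0.103), but not TNE replicate 1 (-2.06, limma adjusted p = 0.0103).

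Sparc was the tightest gene of the set in TPIN. Its TPIN values were 13.58, 13.71 and 13.48, a range of 0.22, and its TNE values 11.72, 10.88 and 10.69. The TNE arrays were all at least 1.76 below the TPIN arrays, with TNE replicate 3 the lowest, the array on which Postn was highest within TNE. The log2 difference was -2.49 (95% interval -3.27 to -1.72, 5.63-fold, limma adjusted p = 0.00344), and -2.81 to -2.29 without single arrays. Sparcl1, its relative, which supports synapse formation in the brain, gave a different picture. Its values were 7.50, 6.98 and 10.87 in TPIN and 7.79, 8.70 and 9.92 in TNE. The groups overlapped, TPIN replicate 3 held the highest value and replicates 1 and 2 of TPIN the lowest. The log2 difference of 0.35 had a 95% interval from -1.98 to 2.69 and did not pass (limma adjusted p = 0.815). It was 1.56 without TPIN replicate 3, and it turned to -0.12, -0.39 and -0.21 without TPIN replicate 1, TPIN replicate 2 and TNE replicate 3.

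**Figure D1:**
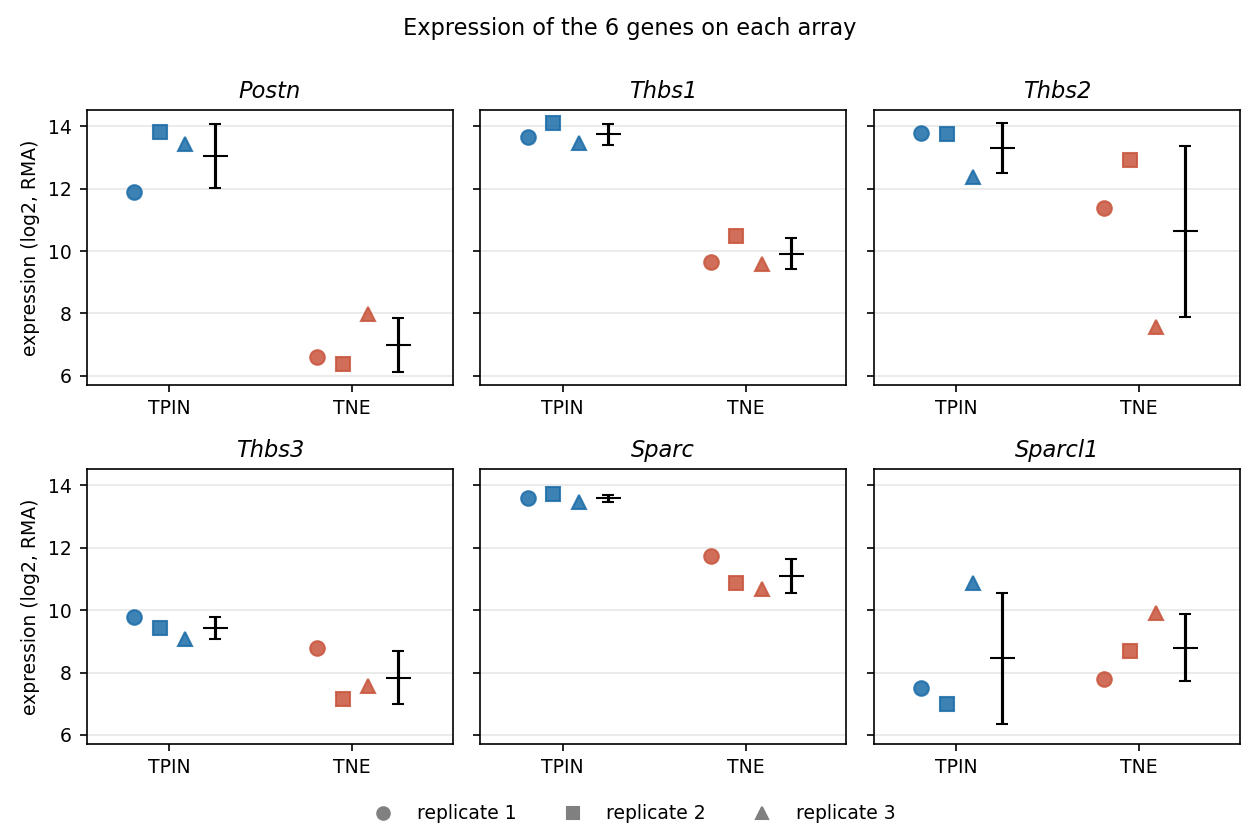
Expression (log2, RMA; vertical axis, shared) of each gene on the 3 TPIN (blue) and 3 TNE (red) arrays; symbols give the replicate number, and the bar with whiskers is the group mean and its SD. Postn, Thbs1, Thbs3 and Sparc show no overlap between the groups, while Thbs2 spans 7.58 to 12.93 in TNE and Sparcl1 spans 6.98 to 10.87 in TPIN.

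Members of a family were then set against each other, by the log2 difference between 2 genes on each array. An exact two-sided permutation test over 3 against 3 arrays cannot give a p under 0.1, so none of the 4 pairs compared could pass. Thbs1 minus Thbs3 was 3.87, 4.69 and 4.37 in TPIN cells against 0.86, 3.33 and 2.03 in TNE cells. The groups did not overlap and the shift was -2.24, Thbs1 having the larger negative difference (exact permutation p = 0.1, 0.4 adjusted over 4 pairs). Thbs1 minus Thbs2 shifted by -1.15 (exact permutation p = 0.5, 0.667 adjusted) and Thbs2 minus Thbs3 by -1.08 (exact permutation p = 0.7, 0.7 adjusted), both with overlapping groups. Sparc minus Sparcl1 was 6.08, 6.73 and 2.61 in TPIN and 3.94, 2.18 and 0.77 in TNE, a shift of -2.84 with overlapping groups (exact permutation p = 0.2, 0.4 adjusted). Without TNE replicate 3 the shift of Thbs2 minus Thbs3 turned to 0.30.

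Beyond the 6 genes, other matricellular genes mostly had negative differences. Of 11 measured genes 4 fell, 1 rose and 6 did not pass, beside 10.2% of all genes that fell and 10.3% that rose. Of the 11 differences 9 were negative, and the median log2 difference was -1.76. Tnc, encoding tenascin-C, the matricellular protein in the series title and a partner of periostin, had a log2 difference of -6.13 (SE 0.38), beside -6.06 (SE 0.60) for Postn. Fbln5, which helps assemble elastic fibres, fell by 3.02 on the log2 scale. The CCN-family genes Ccn4 and Ccn2, the latter known as connective tissue growth factor, had log2 differences of -2.48 and -2.64. Ccn1, of the same family, was at 13.06, 12.69 and 12.85 in TPIN and at 11.87, 11.52 and 7.85 in TNE and did not pass (limma adjusted p = 0.0996). Its lowest value was on TNE replicate 3, as for Thbs2, and without that array it passed (log2 difference -1.17, limma adjusted p = 0.0467). Fbln1, a fibulin, missed the threshold too (log2 difference -1.76, limma adjusted p = 0.104) and passed when TNE replicate 3 was dropped (-2.55, limma adjusted p = 0.0172).

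The gene that rose was Thbs4, named after its values were seen. Thbs4 encodes a pentameric thrombospondin of tendon, muscle and nervous tissue. Its values were 6.83, 7.41 and 7.21 in TPIN and 9.66, 8.86 and 11.35 in TNE. Every TNE array lay above every TPIN array. The log2 difference of 2.81 with an SE of 0.59 made it 7.01-fold higher in TNE (limma adjusted p = 0.0158), opposite in sign to those of Thbs1, Thbs2 and Thbs3. The call was lost without TPIN replicate 1 (limma adjusted p = 0.0622). On the same arrays, the mean of 11 measured of 20 neuroendocrine and neuronal markers was 7.94, 7.29 and 7.36 in TPIN and 8.37, 9.23 and 9.46 in TNE. Of these 11 markers 4 rose, none fell and 7 did not pass, beside 10.3% of all genes that rose. Negative differences numbered 2 of the 11. Eno2, which did not pass, had the log2 difference -0.79 without overlap, and Ncam1 had 0.04. The part of these cells in the Thbs4 values was not tested.

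SPARC belongs to a small family with a shared calcium-binding domain. Of 4 measured relatives 1 fell and 3 did not pass, with a median of 0.61. Among all genes 10.2% fell, and 20.5% passed in either direction. Fstl1, a secreted follistatin-like glycoprotein, was at 12.91, 13.14 and 12.89 in TPIN and at 10.61, 10.00 and 9.44 in TNE. Its groups did not overlap, and its log2 difference was -2.96 with an SE of 0.35 (limma adjusted p = 0.00221). Smoc1, a basement membrane relative, was at 6.88, 6.44 and 6.38 in TPIN and at 6.69, 9.71 and 10.49 in TNE. It was raised on TNE replicates 2 and 3 only and did not pass (log2 difference 2.40, limma adjusted p = 0.0842), but passed without TNE replicate 1 (3.53, limma adjusted p = 0.00291), which took the count of the family to 2. Smoc2 showed a log2 difference of 0.00 (limma adjusted p = 0.998).

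**Figure D2:**
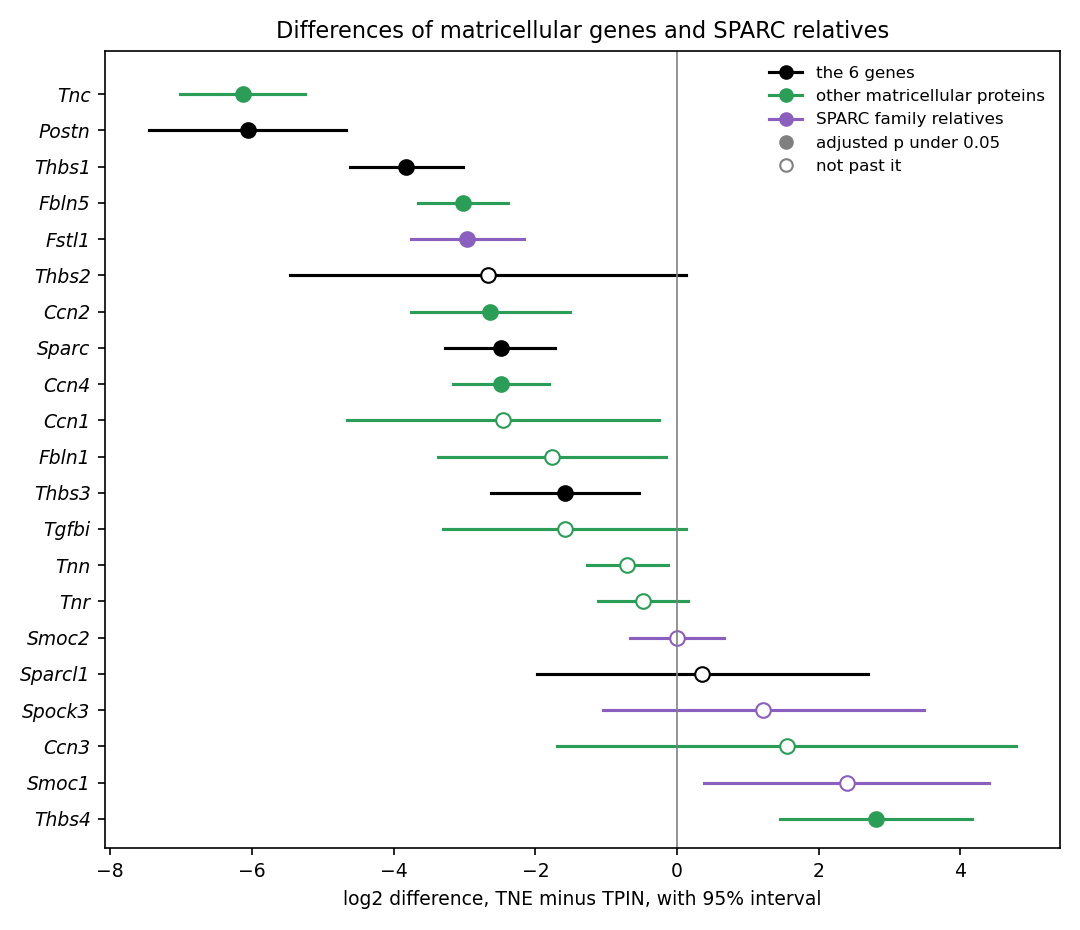
Log2 difference, TNE minus TPIN (horizontal axis), with its unadjusted 95% interval for the 6 genes (black), 11 other matricellular genes (green) and 4 SPARC relatives (purple); filled points have an adjusted p under 0.05. Tnc (-6.13) and Postn (-6.06) lie lowest, and Thbs4 (2.81) is the filled point on the right.

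Receptors for these proteins were tested next. Thrombospondins bind CD47, CD36, LRP1 with calreticulin, and integrins, and periostin binds the integrins of the alpha v chain. Of 14 measured receptor genes of 19 listed 3 fell, none rose and 11 did not pass. The share passing was close to the 20.5% of all genes passing in either direction (10.2% lower in TNE, 10.3% higher). Of the 14 differences 10 were negative, and the median was -0.73. The receptor genes that fell were Itgb3 and Itgb5, which encode some of the beta chains that pair with alpha v, and Lrp1, an endocytic receptor that clears thrombospondins. Their log2 differences were -2.34, -2.43 and -2.86 (limma adjusted p = 0.00249, 0.00576 and 0.00303). Each kept its call without any single array.

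The receptor genes with the highest mean values among those that did not pass were Itgb1, the shared beta 1 chain, and Calr, calreticulin, with log2 differences of -0.19 and -0.74 (limma adjusted p = 0.683 and 0.0970). Calr passed without TPIN replicate 3 (limma adjusted p = 0.0303). Itgav, Cd47 and Itga6 were singled out once their values were known, and none of them passed. The groups of Itgav and Cd47 did not overlap, which held in either direction for 43.8% of all genes. Itga6, an integrin alpha chain, had a positive log2 difference of 2.42 with overlapping groups (limma adjusted p = 0.0735). Itga3, Itga4 and Itgb2 also had positive differences and did not pass. Itgav, the alpha v chain, was at 11.34, 12.04 and 12.16 in TPIN and at 11.03, 9.84 and 7.85 in TNE (log2 difference -2.27, limma adjusted p = 0.0613). Cd47, the thrombospondin-1 receptor that also restrains phagocytes, had a log2 difference of -0.71 (11.72 ± 0.12 in TPIN and 11.00 ± 0.21 in TNE, SD, n = 3 each, limma adjusted p = 0.0858). Dropping TPIN replicate 3 gave 5 receptors past the threshold (4 lower, 1 higher), and dropping TNE replicate 1 gave 5, all lower.

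The type 1 repeat of thrombospondins is shared with many secreted and membrane proteins. Of 29 such genes measured 11 fell, 1 rose and 17 did not pass, beside 10.2% and 10.3% of all genes that fell and rose. Negative differences numbered 27, with a median of -1.16, beside 50.8% negative among all genes. Those with the smallest p were Adamts12 and Adamts6, matrix proteases, and Unc5b and Unc5a, netrin receptors. Their log2 differences were -2.76, -2.32, -2.60 and -2.19, and none of these calls depended on a single array. Adamts1, a protease that cleaves thrombospondins, and Adamts10, which binds fibrillin, did not pass (log2 differences -1.96 and -0.65, limma adjusted p = 0.133 and 0.192). The gene that rose was Adgrb2, an adhesion receptor of the brain, named after its values were seen (log2 difference 1.44, limma adjusted p = 0.0444), and its call was lost without any 1 of 5 of the 6 arrays and with arrays centred on their medians. The 12 genes that passed became 6 when TPIN replicate 1 was dropped, and 7 when TPIN replicate 2, TNE replicate 2 or TNE replicate 3 was dropped.

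The next list held matrix proteins that bind these genes' products and enzymes that process them. Of 20 measured genes 16 fell, none rose, 4 did not pass and all 20 differences were negative, with a median of -3.12. Among all genes 10.2% fell and 50.8% had negative differences. The smallest p belonged to Ctsk (cathepsin K, a collagenase), Lox (lysyl oxidase, a collagen crosslinker), Dcn (decorin) and Serpinh1 (a collagen chaperone of the endoplasmic reticulum). Their log2 differences were -4.00, -6.07, -2.82 and -4.27. Bmp1, the protease that activates lysyl oxidase with the help of periostin, was singled out after its values were seen: it stood at 12.46, 11.89 and 11.15 in TPIN and at 9.40, 9.27 and 9.13 in TNE (log2 difference -2.57, limma adjusted p = 0.00421). Fn1 and Adamts4 had the highest mean values among those that did not pass (limma adjusted p = 0.0719 and 0.389), and Fn1 passed without TNE replicate 1 (limma adjusted p = 0.0276).

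Thbs1, Postn and Sparc are known targets of TGF-beta, and Thbs1 also answers to YAP, TEAD and serum response factor. Of 17 measured genes of TGF-beta ligands, latency proteins and early targets 8 fell, none rose and 9 did not pass, with a median of -1.47. The share of all genes that fell was 10.2%. The part of TGF-beta in the values of Thbs1, Postn and Sparc was not tested. Ltbp2, Tgfbr3, Tgfbr2 and Ltbp3 had log2 differences of -3.30, -2.86, -2.18 and -1.63. Tgfbr1, the type I receptor, and Skil, a feedback inhibitor, did not pass (log2 differences 0.10 and -0.10, limma adjusted p = 0.835 and 0.809). Dropping TPIN replicate 1, TPIN replicate 2, TNE replicate 2 and TNE replicate 3 gave 4, 5, 3 and 4 genes past the threshold. The call for Ltbp3 ended when TPIN replicate 1 or TNE replicate 2 was dropped.

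Of 18 measured genes of the YAP, TEAD and SRF list 7 fell, none rose and 11 did not pass, with a median of -1.73. The share that fell among all genes was 10.2%. Ccn1 and Ccn2 were also counted among the other matricellular genes. Tead3, a DNA-binding partner of YAP, Ccn2, Egr1, an immediate early gene, and Amotl2, a feedback regulator, had log2 differences of -1.63, -2.64, -2.58 and -1.36. Axl, a receptor kinase, and Ccn1 had the highest mean values among those that did not pass (limma adjusted p = 0.0931 and 0.0996), and Axl passed without TNE replicate 1 (limma adjusted p = 0.0210). The list averaged 10.56, 10.68 and 10.04 in TPIN cells against 9.68, 8.80 and 7.92 in TNE cells, lowest on the array where Thbs2 was lowest. The order differed on the other TNE arrays. The list was highest on TNE replicate 1, whereas Thbs2 (12.93) and Thbs1 (10.49) were highest within TNE on replicate 2. Any link between this list and Thbs1 or Thbs2 was not tested. Dropping TPIN replicate 1, TPIN replicate 2, TNE replicate 1 and TNE replicate 2 gave 2, 3, 11 and 2 genes past the threshold. Calls ended for Egr1 when TPIN replicate 1 or 2 or TNE replicate 2 was dropped, and for Amotl2 when TPIN replicate 1 or TNE replicate 2 or 3 was dropped.

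**Figure D3:**
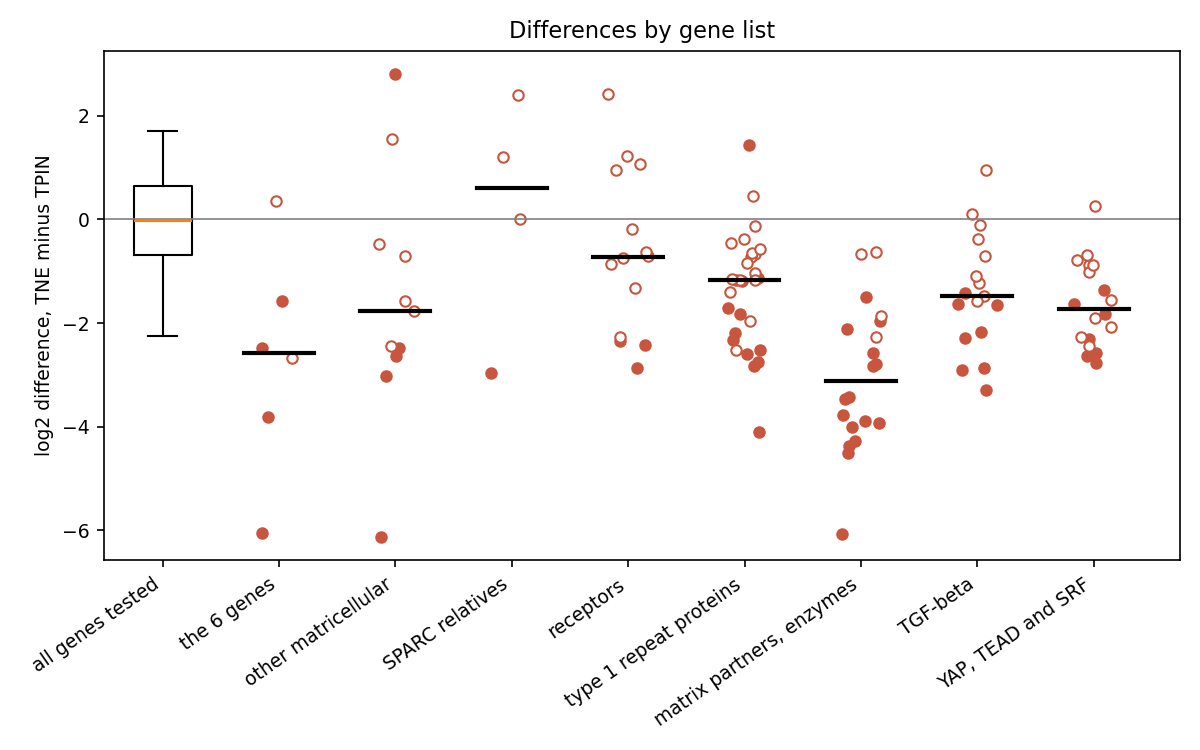
Log2 difference, TNE minus TPIN (vertical axis), of each measured gene by list; filled points have an adjusted p under 0.05, black bars are list medians, and the box for all genes tested shows the quartiles with whiskers at the 5th and 95th percentiles. The medians run from -3.12 for matrix partners and enzymes to 0.61 for SPARC relatives, beside -0.02 for all genes.

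Fibroblast and smooth muscle markers were lower on the same arrays as these genes. Of 20 fibroblast and smooth muscle markers 18 were measured: 13 fell, none rose and 5 did not pass, beside 10.2% of all genes that fell. These markers averaged 11.27, 11.17 and 11.26 in TPIN cells against 7.71, 7.70 and 8.36 in TNE cells. The last is the array on which Postn was highest within TNE. The other genes that fell did not share this order within TNE. On that array Thbs1 (9.59) and Sparc (10.69) were at their lowest, and Thbs3 was highest on TNE replicate 1 (8.80). Pdgfrb and Thy1 are examples, named by no fixed rule, of the fibroblast markers that fell. Pdgfrb had 12.29 ± 0.13 in TPIN and 7.89 ± 0.42 in TNE, and Thy1 had 11.46 ± 1.40 and 7.52 ± 0.49 (SD, n = 3 each). Fap, S100a4, Cnn1, Des and Mfap5 did not pass. These arrays measure whole cultures, so fewer cells of a type and less RNA per cell cannot be told apart, and the part of such cells in the results for Postn, Thbs1, Thbs3 and Sparc was not tested. Of 14 endothelial markers 5 were measured: 2 fell, 1 rose, 2 did not pass and 4 of the 5 differences were negative. Among all genes 10.2% fell and 10.3% rose. Eng and the VEGF receptor Flt1 fell (log2 differences -3.57 and -1.55), Tek and Emcn did not pass (-0.67 and -0.21), and Cdh5, vascular endothelial cadherin, rose (1.62). Of 14 leukocyte and platelet markers 3 were measured and none passed in limma. Of 17 prostate epithelial markers 3 were measured: 1 fell, none rose and 2 did not pass. Epcam and Cdh1 were not analysed here. Krt8 and Krt18 had means of 7.92 and 8.27 in TPIN and 7.59 and 7.60 in TNE and did not pass. Acpp was at 12.08 and 6.49 and fell (log2 difference -5.60, limma adjusted p = 0.000211). In all 3 every TNE array lay below every TPIN array, which held for 20.5% of all genes.

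**Figure D4:**
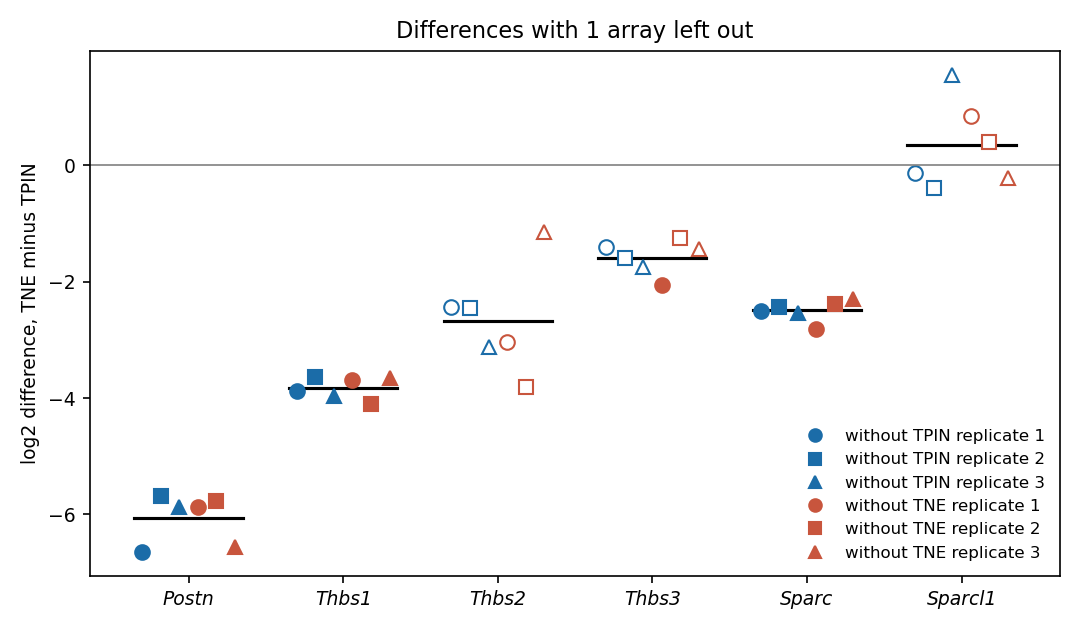
Log2 difference, TNE minus TPIN (vertical axis), of each gene with 1 array left out (blue, a TPIN array; red, a TNE array; symbols give the replicate), against the value with all arrays (black bar); filled points have an adjusted p under 0.05. Postn, Thbs1 and Sparc are filled throughout, Thbs3 is filled in 1 of 6, and Thbs2 moves between -3.82 and -1.15.

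Genes with the pattern most like each gene that fell were found by the root mean square (RMS) difference, over the 6 arrays, between profiles centred on their own means. For Postn these were Aspn (asporin, 0.58 log2 units), Nid1 (nidogen-1, a basement membrane linker, 0.66) and Lox (0.68). For Thbs1 they were Tfpi (tissue factor pathway inhibitor, 0.25), Ch25h (cholesterol 25-hydroxylase, 0.26) and Papss2 (a sulphate donor synthase, 0.27). Thbs3 lay closest to Nfkbiz (0.14), Slc25a37 (0.16) and Cmtm3 (0.19). Sparc lay closest to Osr2, a transcription factor (0.12), Asah2 (0.17) and Atxn1 (0.18). The 12 genes had log2 differences between -6.07 and -1.44. Likeness over 6 arrays mostly restates the difference between the groups. Among the 6 genes, Thbs3 and Sparc were the nearest pair (0.54), followed by Thbs1 and Sparc (0.83), while Postn and Sparcl1 were farthest apart (3.46).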

How the data were processed

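Expression was measured on 6 arrays, 3 per group. The deposited values are on a log2 scale and came from RMA, per the submitters' processing notes, which name no version. RMA brings arrays to a shared distribution and narrows differences near background. Over the deposited rows, array medians still ran from 8.816 to 9.101. The table has 10361 rows, and what selected them is unknown here, so adjusted p-values refer to these rows. No background call comes with it, and the number of arrays limits the precision. Rows with 1 symbol in the array annotation (9496) gave 9490 genes, the row with the highest mean being kept for 6 genes. Differences were fitted in limma 3.58.1 under R 4.3.3 (a mean per group, empirical Bayes, two-sided, Benjamini-Hochberg over all genes, threshold 0.05), tested on simulated data. The 6 genes, the lists and the tests were chosen with earlier results of these data known. Some lists share genes, so their counts are not independent. Ccn1, Ccn2 and Tgfbi stand in the other matricellular list and in the YAP or TGF-beta list. Adamts4 is both a type 1 repeat gene and a matrix enzyme. Col1a1, Col1a2, Col3a1 and Dcn are both matrix partners and fibroblast markers. Named list genes were those past the threshold (the 4 of smallest p where more passed) and the 2 with the highest mean that did not pass. Others are marked, and cell type markers were named by no fixed rule. Alternatives were another quantile normalization, median centring, leaving out the 25% of genes with the lowest mean, all rows, trended robust moderation, array weights and each array left out. No genome build is named for the array, so gene coordinates are not given; the promoter table carries its own build.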

Additional observations from a re-analysis of the deposited data

How the results depend on the processing

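Postn, Thbs1 and Sparc kept their direction and call under all alternatives run. Leaving out single arrays gave ranges of -6.64 to -5.68, -4.11 to -3.63 and -2.81 to -2.29 for these 3, -3.82 to -1.15 for Thbs2, -2.06 to -1.24 for Thbs3 and -0.39 to 1.56 for Sparcl1. It gave 832 to 2596 genes past the threshold, and by list 4 to 7 for other matricellular genes, 1 to 2 for SPARC relatives, 3 to 5 for receptors, 6 to 12 for type 1 repeat genes, 14 to 17 for matrix partners, 3 to 8 for TGF-beta genes and 2 to 11 for YAP, TEAD and SRF genes. The shift of Thbs2 minus Thbs3 ran from -2.57 to 0.30. Array weights gave 4267 genes past the threshold against 1941, 2 SPARC relatives against 1, 8 receptors against 3 and 13 YAP, TEAD and SRF genes against 7; the cause was not tested. With these weights Fbln1, Smoc1, Calr, Fn1 and Axl, which had not passed with all arrays weighted equally, passed (limma adjusted p = 0.00845, 0.0280, 0.0138, 0.0351 and 0.0285). Differences near 0 changed sign: Smoc2 to -0.15 and Itgb1 to 0.10 with array weights, and without single arrays Smoc2 ran from -0.17 to 0.13, Itgb1 from -0.34 to 0.068, Tgfbr1 from -0.10 to 0.26 and Skil from -0.24 to 0.004. No paired analysis was possible because replicate numbers were given in series order and pair no samples.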

Other observations

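Thbs2 and Sparcl1, which did not pass, had patterns of their own within the groups. Thbs2 was low on TPIN replicate 3 (12.37) and TNE replicate 3 (7.58), and the genes most like it over the 6 arrays were Arhgap42 (RMS difference 0.62 log2 units), the small heat shock gene Cryab (0.74) and Ccn1 (0.77). Sparcl1 was high on the same arrays (10.87 and 9.92), and the genes most like it were Slitrk6, a neuronal transmembrane gene (0.45), Eya4, a transcriptional coactivator (0.66), and Mir99ahg (0.68). The groups overlapped for Arhgap42, Cryab and the 3 genes most like Sparcl1, and did not for Ccn1.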
